A study of Rattus norvegicus with 18 samples.

Results

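The genes described here are 39 genes of the interferon response and of antigen presentation, followed in the extensor digitorum longus (EDL), a fast hindlimb muscle, of 18 rats. They were chosen by name for what they do, and each was read from the array probe set that carries its symbol and no other. Of the 39 genes, 36 had such a probe set, and Eif2ak2, Parp14 and Xaf1 did not. A probe set had to average above 5.26 on the log2 scale, the 25th percentile of all probe sets, to be tested. That left 33 genes of the 12749 tested on the array. Mx1, Rsad2 and Usp18 lay below that level and are described apart.

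The animals were adult Sprague-Dawley females of the F2 generation, and each array held RNA of its own animal. Their F0 grandfathers had been fed a high-fat or a chow diet, and the granddaughters themselves ate a high-fat diet (42/45% of energy from fat, as labelled) or chow for 12 weeks. The groups are named by the grandfather's diet and then the animal's own: high-fat/high-fat (4 animals), high-fat/chow (4 animals), chow/high-fat (5 animals) and chow/chow (5 animals). All animals shared strain, sex and tissue, and no transgene or drug was used, as far as the labels say. How many grandfathers stood behind each group is not given in the sources used here, so relatives within a lineage may make p-values of the grandpaternal comparisons too small.

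Interferons are secreted proteins that cells release on sensing virus or other danger. Type I and type III interferons act through the kinases Jak1 and Tyk2 on a complex that holds Stat2 and Irf9 and binds the interferon-stimulated response element (ISRE). Interferon gamma acts through the gamma-activated site (GAS), and it induces the immunoproteasome and the loading of peptides onto MHC class I. Resting muscle fibres carry little class I on their surface, and high class I on fibres is a known feature of inflammatory muscle disease. In whole muscle RNA these transcripts come from fibres, vessels, fibroblasts and resident leukocytes together, so fewer cells of a type and less RNA per cell cannot be told apart.

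Promoters are shown for some of the genes whose levels the results describe, because the ISRE links most of these genes. They were picked with those levels known, so they are not a fair sample of the promoters looked at. Each run holds the 250 bases before to the 50 bases after the start that the RefSeq promoter table on GRCr8 uses, 5′ to 3′ on the gene's strand. For 14 of 29 genes that start lies inside the gene's outermost end in RefSeq, by 520 bases for Irf7, 70 for Trim21 and 29 for Ifi44, so the Irf7 run lies wholly within the gene. Capitals mark an ISRE core, which is GAAA, any 2 bases and GAAA again read on either strand, or a GAS core, TTCNNNGAA, which reads the same on both strands. Where 2 ISRE cores overlap, as in Trim21, the capitals run through both.
Ifi27 chr6:128355062-128355361 (plus strand): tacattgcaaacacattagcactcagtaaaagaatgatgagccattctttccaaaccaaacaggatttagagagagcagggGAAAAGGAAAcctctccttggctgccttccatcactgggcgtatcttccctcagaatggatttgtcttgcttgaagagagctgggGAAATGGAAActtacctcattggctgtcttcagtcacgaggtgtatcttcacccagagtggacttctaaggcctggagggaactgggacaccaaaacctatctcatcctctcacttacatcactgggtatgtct
Ifi44 chr2:243303791-243304090 (minus strand): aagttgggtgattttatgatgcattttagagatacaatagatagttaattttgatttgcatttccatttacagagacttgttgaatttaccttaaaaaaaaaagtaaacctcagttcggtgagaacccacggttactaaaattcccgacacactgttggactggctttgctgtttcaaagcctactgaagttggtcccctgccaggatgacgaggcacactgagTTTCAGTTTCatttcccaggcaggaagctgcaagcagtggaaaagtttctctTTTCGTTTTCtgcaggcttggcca
Trim21 chr1:166399322-166399621 (minus strand): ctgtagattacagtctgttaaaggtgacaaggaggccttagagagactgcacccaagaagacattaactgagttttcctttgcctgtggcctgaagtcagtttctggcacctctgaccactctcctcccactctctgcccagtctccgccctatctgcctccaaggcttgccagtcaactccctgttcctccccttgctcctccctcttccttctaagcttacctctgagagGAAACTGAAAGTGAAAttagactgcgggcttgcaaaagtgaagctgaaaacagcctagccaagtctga
Irf7 chr1:205799974-205800273 (minus strand): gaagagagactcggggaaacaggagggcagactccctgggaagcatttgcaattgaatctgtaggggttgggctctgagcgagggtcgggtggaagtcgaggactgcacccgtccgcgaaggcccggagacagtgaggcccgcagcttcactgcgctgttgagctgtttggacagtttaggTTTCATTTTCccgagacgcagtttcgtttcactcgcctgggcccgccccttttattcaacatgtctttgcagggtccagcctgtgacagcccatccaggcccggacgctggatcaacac
Ifitm3 chr1:205541709-205542008 (minus strand): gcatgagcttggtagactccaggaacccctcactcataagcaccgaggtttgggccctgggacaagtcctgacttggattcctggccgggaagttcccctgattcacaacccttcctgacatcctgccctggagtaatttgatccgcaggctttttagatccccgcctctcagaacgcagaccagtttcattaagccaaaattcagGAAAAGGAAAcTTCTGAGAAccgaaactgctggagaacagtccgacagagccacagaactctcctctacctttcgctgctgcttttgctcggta
Tap1 chr20:4668494-4668793 (minus strand): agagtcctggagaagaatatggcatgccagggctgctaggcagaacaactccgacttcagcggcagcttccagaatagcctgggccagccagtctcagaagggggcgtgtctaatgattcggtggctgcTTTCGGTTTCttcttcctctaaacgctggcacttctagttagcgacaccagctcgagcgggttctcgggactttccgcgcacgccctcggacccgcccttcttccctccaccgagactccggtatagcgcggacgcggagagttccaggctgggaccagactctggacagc
Tlr3 chr16:53554666-53554965 (plus strand): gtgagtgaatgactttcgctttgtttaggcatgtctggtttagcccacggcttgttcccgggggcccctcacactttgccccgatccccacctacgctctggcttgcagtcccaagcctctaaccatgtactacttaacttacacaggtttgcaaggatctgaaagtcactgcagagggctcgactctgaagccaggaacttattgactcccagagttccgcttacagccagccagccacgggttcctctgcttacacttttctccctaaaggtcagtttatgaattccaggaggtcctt
Znfx1 chr3:176210763-176211062 (minus strand): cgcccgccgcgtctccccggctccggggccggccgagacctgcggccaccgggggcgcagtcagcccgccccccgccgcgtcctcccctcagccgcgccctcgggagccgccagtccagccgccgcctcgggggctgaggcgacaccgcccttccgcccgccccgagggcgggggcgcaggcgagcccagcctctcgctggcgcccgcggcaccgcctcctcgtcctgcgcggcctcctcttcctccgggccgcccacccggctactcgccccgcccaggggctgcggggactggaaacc

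A promoter was found for 29 of the 36 genes on the array. An ISRE core stood in 18 of these 29 promoters (62.1%), against 3.92% of all 33469 rat promoters of the same length and 3.70% of the 21851 protein-coding ones. A GAS core stood in 7 of 29 (24.1%), against 8.87% of all promoters. The genes had been picked for their known response to interferon, so these shares describe the choice of genes. Ifi27 held 2 ISRE cores, beginning at positions -169 and -84 from the start used. Ifi44 held 1 core beginning at position -26 and another at position 26. Trim21 held 2 overlapping cores just before the start used, and Ifitm3 had an ISRE core followed within a few bases by a GAS core. No core was found in the windows of Tlr3 and Znfx1, which says only that these letters are not in those windows. Among promoters not shown, Stat2 and Ifi35 also held no core, Samhd1 held no ISRE core and Oas1a held 2. Whether diet differences go with the cores was not tested.

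Markers of skeletal muscle stood high, which does not tell EDL from other muscles. The creatine kinase gene Ckm and the skeletal actin gene Acta1 averaged 13.0 and 13.2 on the log2 scale, and the summed level of 10 fibre markers lay between 73015 and 78614 intensity units over all groups. The summed level of 6 slow fibre markers varied more between animals, from 3267 to 16321 units. Median intensities of the deposited arrays ran from 55.02 to 73.97, with the lowest in chow/high-fat replicates 4 and 5, and the arrays were brought to 1 distribution before any test. No 2 arrays of a group were copies, since at most 0.0908% of their values were identical.

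Under the animals' own high-fat diet, averaged over both lineages, 21 of the 33 genes were lower and 12 higher than under chow, where 51.6% of all genes were lower, and none passed the limma test after Benjamini-Hochberg adjustment over all genes. In all 2 of 12749 genes passed (0.0157%), while an unadjusted p under 0.05 was found for 857. The interferon genes' differences had a median of -0.028 on the log2 scale and ran from -0.46 to 0.19, and the median over all genes was -0.0028. At an unadjusted p under 0.05 there were 6 genes lower, Ifi27, Ifitm3, Irf7, Tap1, Ifit2 and Oas1a, where 3.43% of all genes were lower at that level. Znfx1 and Tlr3 were higher at the same level, where 3.29% of all genes were. The count of 6 became 2 without high-fat/high-fat replicate 4, and 3 when high-fat/chow replicate 4, chow/high-fat replicate 1 or 5, or chow/chow replicate 4 was left out.

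**Figure D1:**
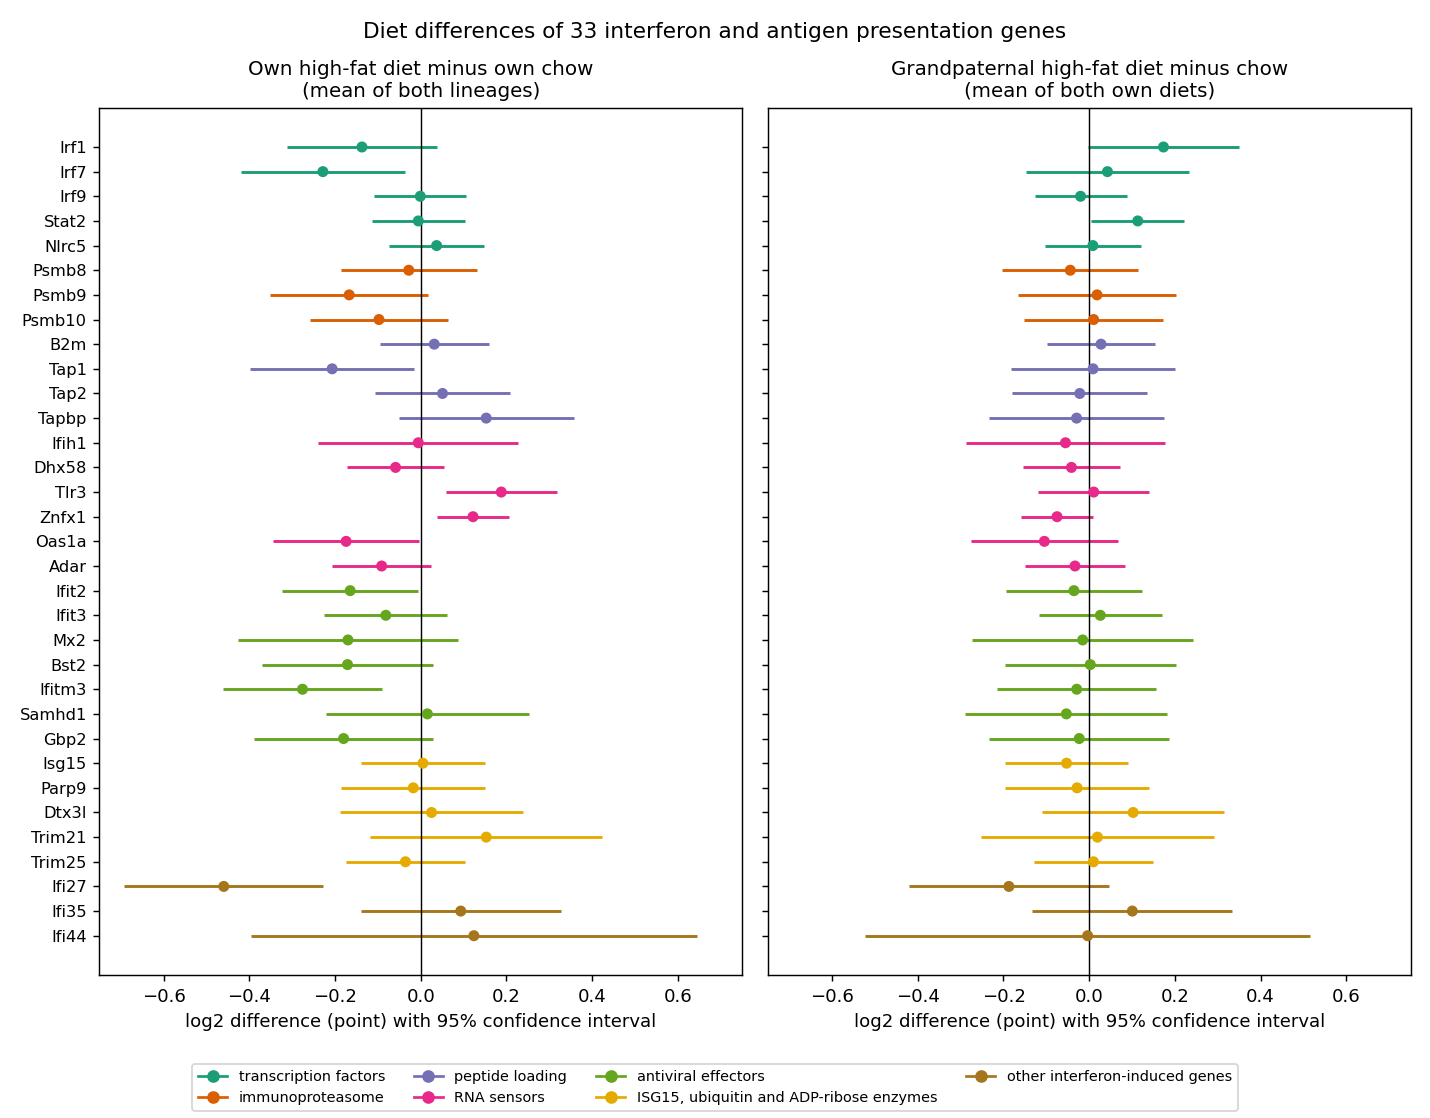
Differences of the 33 tested genes on the log2 scale with 95% confidence intervals, for own high-fat diet minus own chow (left) and grandpaternal high-fat diet minus chow (right), coloured by role. On the left the interval of Ifi27 lies furthest below 0, from -0.69 to -0.23, and those of Tlr3 and Znfx1 lie above 0, while on the right each interval but that of Stat2 includes 0.

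Ifi27, a small membrane protein strongly induced by type I interferon, differed most with the animals' own diet among these genes. It read 8.38, 8.19, 8.34 and 7.71 in the high-fat/high-fat animals, against 8.47, 8.63, 8.76 and 9.06 in the high-fat/chow animals. It read 8.49, 8.36, 8.89, 8.32 and 8.23 in the chow/high-fat animals, against 8.82, 8.40, 8.87, 9.03 and 8.89 in the chow/chow animals. Under high-fat grandfathers the 2 groups did not overlap. Under chow-fed grandfathers they did, with 4 of 5 high-fat animals at or below 8.49. The mean over both lineages was 8.31 on the high-fat diet and 8.77 on chow, 0.727-fold, or a log2 difference of -0.46 (SE 0.11, 95% confidence interval -0.69 to -0.23), which did not pass (limma adjusted p = 0.2473). The difference was -0.58 (SE 0.17) in the high-fat lineage and -0.34 (SE 0.15) in the chow lineage. Within well columns 5 and 7 of the array titles, which held both lineages, it was -0.35 and -0.57. Column 9 held no chow/high-fat animal, and there the high-fat lineage alone gave -0.78.

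Ifitm3, a membrane protein that blocks virus fusion in the endosome, had the next smallest p for own diet. It read 8.19, 7.98, 7.87 and 8.12 in the high-fat/high-fat animals, against 8.13, 8.46, 8.63 and 8.41 in the high-fat/chow animals. It read 8.23, 8.35, 7.97, 8.15 and 8.11 in the chow/high-fat animals, against 8.58, 8.11, 7.98, 8.49 and 8.57 in the chow/chow animals. The groups overlapped in both lineages, through 1 chow-fed animal under high-fat grandfathers and 2 under chow-fed ones. The log2 difference was -0.28 (SE 0.089, 95% confidence interval -0.46 to -0.09, limma adjusted p = 0.5203). It was -0.44 and 0.078 within well columns 5 and 7, so the sign did not hold in column 7, and in column 9 the high-fat lineage alone gave -0.33. Its relative Ifitm2, from the wider list of pathway genes, differed by -0.28 (limma adjusted p = 0.5554), and whether probes of these closely related genes share signal was not tested.

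**Figure D2:**
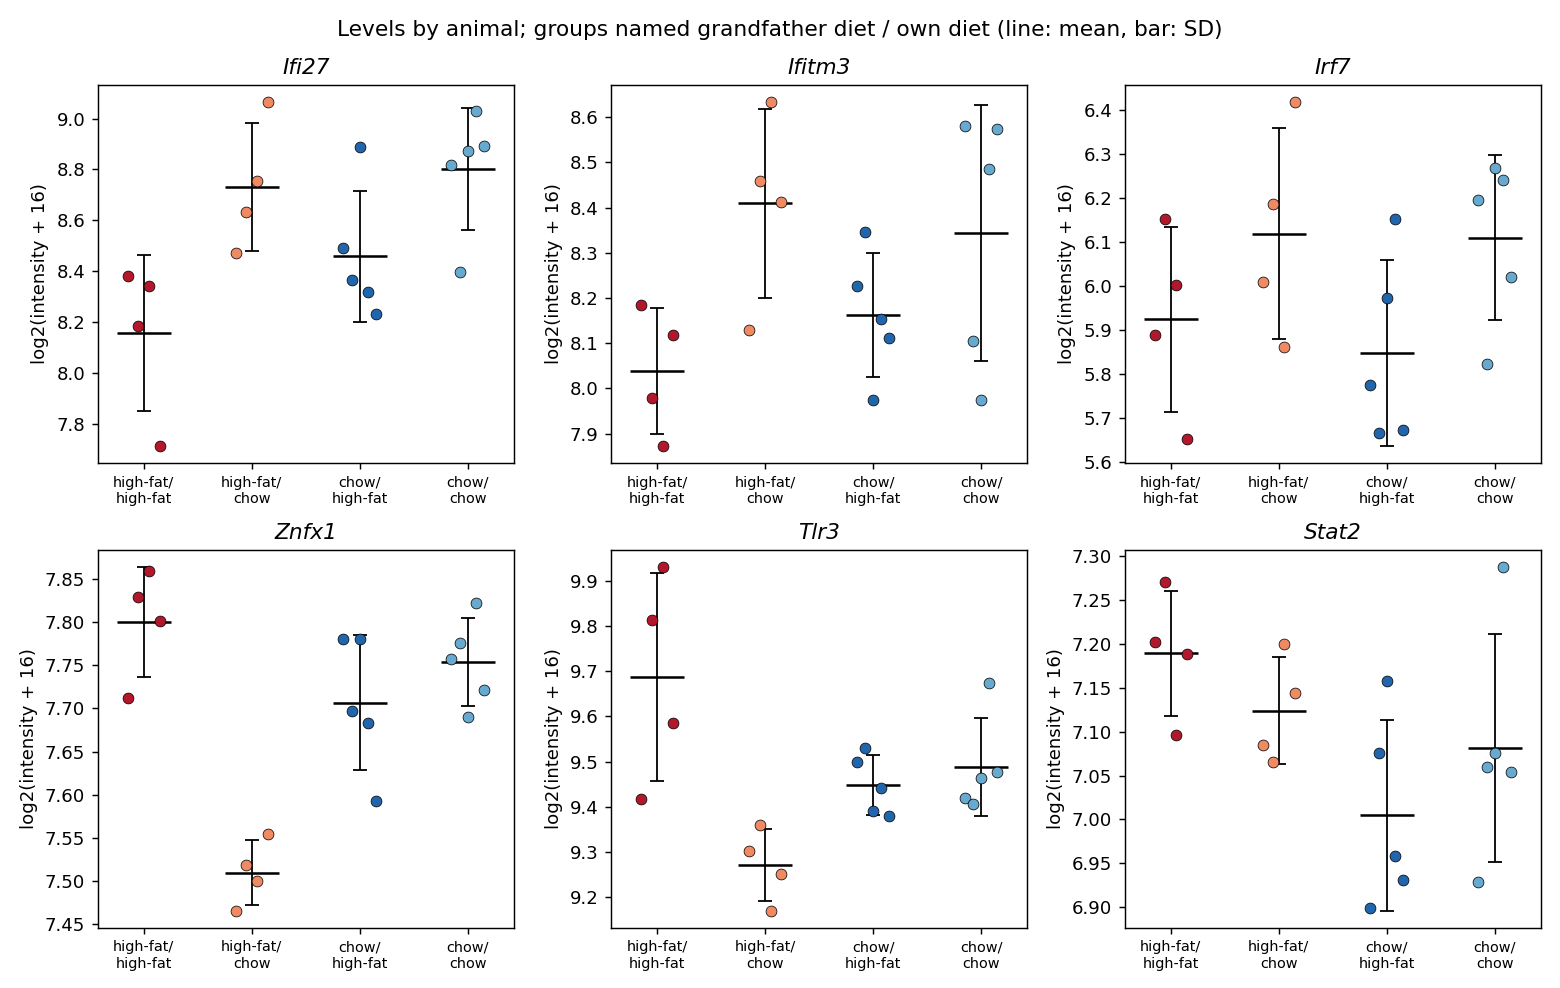
Levels of 6 genes as log2(intensity + 16), with 1 point per animal, a line at each group mean and bars of 1 SD (n = 4, 4, 5 and 5 from left to right). Ifi27 is lower in the high-fat/high-fat than in the high-fat/chow animals with no overlap, and for Znfx1 and Tlr3 the high-fat/chow animals lie below those of the other groups.

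Among the transcription factors, Irf7, which drives interferon production, read 5.89, 6.15, 6.0 and 5.65 in the high-fat/high-fat animals, against 6.01, 6.19, 5.86 and 6.42 in the high-fat/chow animals. It read 5.78, 5.67, 5.97, 6.15 and 5.67 in the chow/high-fat animals, against 6.20, 5.82, 6.27, 6.24 and 6.02 in the chow/chow animals. The groups overlapped in both lineages. The own-diet difference was -0.23 (SE 0.091, limma adjusted p = 0.7166), and within well columns 5 and 7 it was -0.072 and -0.43, with -0.40 in column 9 from the high-fat lineage alone. Irf1, an activator induced by interferon gamma, differed by -0.14. Stat2 and Irf9, both partners in the ISRE-binding complex, and Nlrc5, the activator of class I genes, differed by at most 0.04 in either direction.

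The immunoproteasome subunits Psmb8, Psmb9 and Psmb10 replace the standard catalytic subunits when interferon gamma is present, and cut peptides suited to class I. All 3 were lower on the own high-fat diet, with differences from -0.17 to -0.03 and intervals that included 0. Psmb9 read 6.29, 6.58, 6.62 and 6.15 in the high-fat/high-fat animals, against 6.25, 6.71, 6.60 and 6.65 in the high-fat/chow animals. It read 6.38, 6.44, 6.20, 6.52 and 6.29 in the chow/high-fat animals, against 6.60, 6.22, 6.60, 6.49 and 6.88 in the chow/chow animals. The groups overlapped widely in both lineages. Psmb10 read 6.68, 6.81, 6.54 and 6.39 in the high-fat/high-fat animals, against 6.87, 6.83, 6.63 and 6.77 in the high-fat/chow animals. It read 6.39, 6.76, 6.55, 7.05 and 6.59 in the chow/high-fat animals, against 6.56, 6.70, 6.80, 6.64 and 6.76 in the chow/chow animals, and the highest value of all stood among the chow/high-fat animals.

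Peptide loading gave mixed signs. Tap1, which forms with Tap2 the transporter that moves peptides into the endoplasmic reticulum, read 5.89, 5.79, 5.64 and 5.70 in the high-fat/high-fat animals, against 5.76, 6.09, 6.03 and 6.20 in the high-fat/chow animals. It read 5.52, 6.27, 5.82, 5.78 and 5.65 in the chow/high-fat animals, against 5.79, 5.87, 5.89, 6.30 and 5.91 in the chow/chow animals. In each lineage 2 high-fat animals lay within the range of the chow animals and the rest below it. The own-diet difference of Tap1 was -0.21 (SE 0.092, limma adjusted p = 0.7279), while its partner Tap2 differed by 0.05. Tapbp (tapasin), which holds class I to the transporter, differed by 0.15. It read 7.20, 6.95, 6.71 and 6.25 in the high-fat/high-fat animals, against 6.38, 6.51, 6.42 and 6.81 in the high-fat/chow animals. It read 6.57, 6.73, 6.80, 6.72 and 6.74 in the chow/high-fat animals, against 6.69, 6.51, 6.51, 6.85 and 6.71 in the chow/chow animals, and the high-fat/high-fat animals spanned both ends of all values. B2m, the light chain of class I, varied little. It read 11.23, 11.19, 11.38 and 11.11 in the high-fat/high-fat animals, against 11.13, 11.09, 11.05 and 11.29 in the high-fat/chow animals. It read 11.03, 11.39, 11.04, 11.26 and 10.99 in the chow/high-fat animals, against 11.08, 11.07, 11.20, 11.27 and 11.23 in the chow/chow animals. Its own-diet difference was 0.03 (95% confidence interval -0.10 to 0.16), and the groups overlapped in both lineages.

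Among the RNA sensors, Znfx1 and Tlr3 were lowest in the high-fat/chow animals. Znfx1, a helicase-like protein that binds viral RNA in mouse and human cells, read 7.71, 7.83, 7.86 and 7.80 in the high-fat/high-fat animals, against 7.47, 7.52, 7.50 and 7.55 in the high-fat/chow animals. It read 7.78, 7.70, 7.78, 7.68 and 7.59 in the chow/high-fat animals, against 7.76, 7.78, 7.69, 7.82 and 7.72 in the chow/chow animals. All 4 high-fat/chow animals lay below all 14 others. Tlr3, the endosomal receptor for viral RNA, read 9.42, 9.81, 9.93 and 9.59 in the high-fat/high-fat animals, against 9.30, 9.36, 9.17 and 9.25 in the high-fat/chow animals. It read 9.50, 9.53, 9.39, 9.44 and 9.38 in the chow/high-fat animals, against 9.42, 9.41, 9.46, 9.67 and 9.48 in the chow/chow animals. Here too the 4 high-fat/chow animals were the lowest of the 18, and 2 high-fat/high-fat animals were the highest. Marker lists also differed between the groups. As a mean of centred log2 levels the 6 slow fibre markers stood at -0.04 in high-fat/high-fat, -0.62 in high-fat/chow, 0.12 in chow/high-fat and 0.41 in chow/chow animals, with SDs from 0.42 to 0.96. On that scale the 10 fibroblast markers stood at -0.11, 0.17, -0.13 and 0.08 in the same order of groups and the 17 leukocyte markers at -0.06, 0.13, -0.10 and 0.05, and their part in the levels of Znfx1 and Tlr3 was not tested.

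In the high-fat lineage, own high-fat diet against own chow gave a Znfx1 difference of 0.29 (SE 0.060) and a Tlr3 difference of 0.42 (SE 0.093), both with a limma adjusted p of 0.2473. Within well columns 5, 7 and 9 the Znfx1 difference was 0.35, 0.34 and 0.22 and the Tlr3 difference 0.67, 0.28 and 0.36. Of the 33 genes, 19 were lower and 14 higher in this comparison, where 50.4% of all genes were lower, with a median of -0.039, and none passed adjustment, nor did any gene on the array (0%, with 1174 at an unadjusted p under 0.05). The groups did not overlap for 2 genes above, Znfx1 and Tlr3, where 2.06% of all genes stood apart in that direction. They did not overlap for 2 genes below, Ifi27 and Adar, where 2.05% of all genes did. Adar, the enzyme that edits adenosines in RNA, was outside the rule for genes given in full and is named because the count is small, and it differed by -0.18 (limma adjusted p = 0.5164). At an unadjusted p under 0.05, 3 genes were lower and 2 higher, where 4.37% and 4.84% of all genes were.

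In the chow lineage own high-fat diet against own chow gave differences of -0.05 for Znfx1 and -0.04 for Tlr3. Here 25 of the 33 genes were lower and 8 higher, the median was -0.076 against -0.0031 over all genes, and 51.4% of all genes were lower. At an unadjusted p under 0.05, 3 genes were lower, Ifit2, Ifi27 and Irf7, where 2.30% of all genes were, and none was higher, where 2.49% were. This count became 1 when chow/high-fat replicate 5 or chow/chow replicate 4 was left out, and 5 when chow/high-fat replicate 4 was. It was 11 on the table as deposited, where the median of all genes was -0.13, 6 in a fit of these 2 groups alone and 1 with the well column as a block. None passed adjustment, as was so for all genes (0%, while 611 had an unadjusted p under 0.05), and no gene had groups that stood apart, where 0.416% of all genes did above and 0.337% below.

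Ifit2 binds RNA and slows translation. It read 7.09, 7.09, 7.39 and 7.11 in the high-fat/high-fat animals, against 7.24, 7.38, 7.03 and 7.07 in the high-fat/chow animals. It read 6.83, 7.14, 6.91, 7.30 and 7.06 in the chow/high-fat animals, against 7.27, 7.40, 7.13, 7.48 and 7.57 in the chow/chow animals. The chow-lineage groups overlapped between 7.13 and 7.30. The difference there was -0.32 (SE 0.10, limma adjusted p = 0.9622), and in the high-fat lineage it was -0.01. Within well columns 5 and 7 the chow-lineage difference was -0.32 and -0.088, and column 9 held no chow/high-fat animal.

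The test of the difference between the lineages' diet responses, the interaction, gave Znfx1 0.34 (SE 0.081, limma adjusted p = 0.5485), Tlr3 0.45 (SE 0.12, limma adjusted p = 0.57) and Ifit2 0.31 (SE 0.15, limma adjusted p = 0.7182). Of the 33 genes, 21 were above 0 and 12 below, where 48.9% of all genes were below, with a median of 0.067, and none passed, nor did any gene on the array (0%). At an unadjusted p under 0.05, 2 were above 0, Znfx1 and Tlr3, where 3.55% of all genes were, and none was below 0, where 3.25% were. The interaction and the comparisons within the high-fat lineage and within own chow all use the same 4 high-fat/chow animals, so the low Znfx1 and Tlr3 of that group enters each of them.

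Ifih1, the MDA5 sensor of long viral RNA, varied between animals with no order by diet. It read 7.64, 7.03, 7.16 and 7.02 in the high-fat/high-fat animals, against 7.16, 7.17, 6.98 and 7.23 in the high-fat/chow animals. It read 6.73, 7.56, 7.31, 7.34 and 6.97 in the chow/high-fat animals, against 7.29, 7.45, 7.17, 7.55 and 6.90 in the chow/chow animals. Its own-diet difference was -0.01. Oas1a, of the family that activates RNase L, differed by -0.17 (limma adjusted p = 0.7416), and Dhx58, a helicase related to Ifih1, by -0.06. Oas1 genes are many and alike in rat, so its probe set may also read relatives.

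Of the antiviral effectors tested, 6 of 7 were lower on the own high-fat diet and 1 was higher, with 2 lower at an unadjusted p under 0.05 and none after adjustment, and the median was -0.17. Of all genes 51.6% were lower, and 3.43% at that level. Gbp2, a guanylate-binding protein induced by interferon gamma, differed by -0.18. Mx2, a dynamin-like protein related to Mx1, and Bst2, which tethers virus particles to the cell surface, both differed by -0.17. The 2 Mx genes are alike in sequence, so their probe sets may share signal. Samhd1, which breaks down nucleotides that viruses need, differed by 0.02. Rsad2 (viperin) lay below the filter and read 5.41, 5.52, 4.87 and 5.00 in the high-fat/high-fat animals, against 5.23, 5.08, 5.02 and 5.33 in the high-fat/chow animals. It read 6.10, 4.97, 5.30, 5.43 and 4.81 in the chow/high-fat animals, against 5.35, 5.17, 5.09, 5.09 and 5.05 in the chow/chow animals, with 1 chow/high-fat animal above all others. In a fit with no filter on 16856 genes it differed by 0.10 (limma adjusted p = 0.9552), and Mx1 differed by -0.19 (limma adjusted p = 0.8683).

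Isg15 is a ubiquitin-like tag, and Usp18 removes it and damps interferon signalling. Usp18, also below the filter, read 4.70, 5.05, 4.81 and 4.68 in the high-fat/high-fat animals, against 5.39, 5.17, 5.40 and 5.30 in the high-fat/chow animals. It read 4.88, 5.19, 5.11, 5.51 and 4.73 in the chow/high-fat animals, against 4.88, 5.17, 5.36, 5.30 and 5.27 in the chow/chow animals. Under high-fat grandfathers the groups did not overlap, and in the fit with no filter the difference there was -0.50 (SE 0.13, limma adjusted p = 0.3238). Averaged over both lineages it was -0.31 (SE 0.090, limma adjusted p = 0.4521). Isg15 itself differed by 0.01 and Trim25, a ubiquitin ligase of RNA sensing in human cells, by -0.04. Trim25 read 8.41, 8.30, 8.02 and 8.10 in the high-fat/high-fat animals, against 8.36, 8.40, 8.19 and 7.96 in the high-fat/chow animals. It read 8.27, 8.13, 8.11, 8.33 and 8.08 in the chow/high-fat animals, against 8.27, 8.10, 8.30, 8.25 and 8.26 in the chow/chow animals, with full overlap.

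The genes varied more between animals of a group than most genes did. The SD within groups had a median of 0.185 on the log2 scale over the 33 genes, from 0.060 for Znfx1 to 0.608 for Ifi44, and the median over all 12749 genes was 0.136. The 33 genes were also dimmer, with a median level of 6.47 against 7.27 over all genes. The part of that lower level in the larger SD was not tested. Ifi44, a cytoplasmic protein induced by type I interferon, read 8.31, 8.17, 6.69 and 7.21 in the high-fat/high-fat animals, against 7.53, 6.98, 7.46 and 7.08 in the high-fat/chow animals. It read 6.72, 7.97, 7.76, 7.74 and 6.76 in the chow/high-fat animals, against 6.86, 7.68, 7.36, 8.49 and 6.99 in the chow/chow animals. High and low animals stood in 3 of the 4 groups, and the own-diet difference was 0.12 (95% confidence interval -0.40 to 0.64). Trim21, a cytosolic antibody receptor and ubiquitin ligase, read 7.40, 7.38, 6.91 and 6.86 in the high-fat/high-fat animals, against 6.89, 6.95, 6.91 and 6.59 in the high-fat/chow animals. It read 6.82, 7.21, 7.13, 6.90 and 6.78 in the chow/high-fat animals, against 6.67, 6.95, 6.67, 7.77 and 6.78 in the chow/chow animals. The animals high in Trim21 were high in Ifi44 as well.

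**Figure D3:**
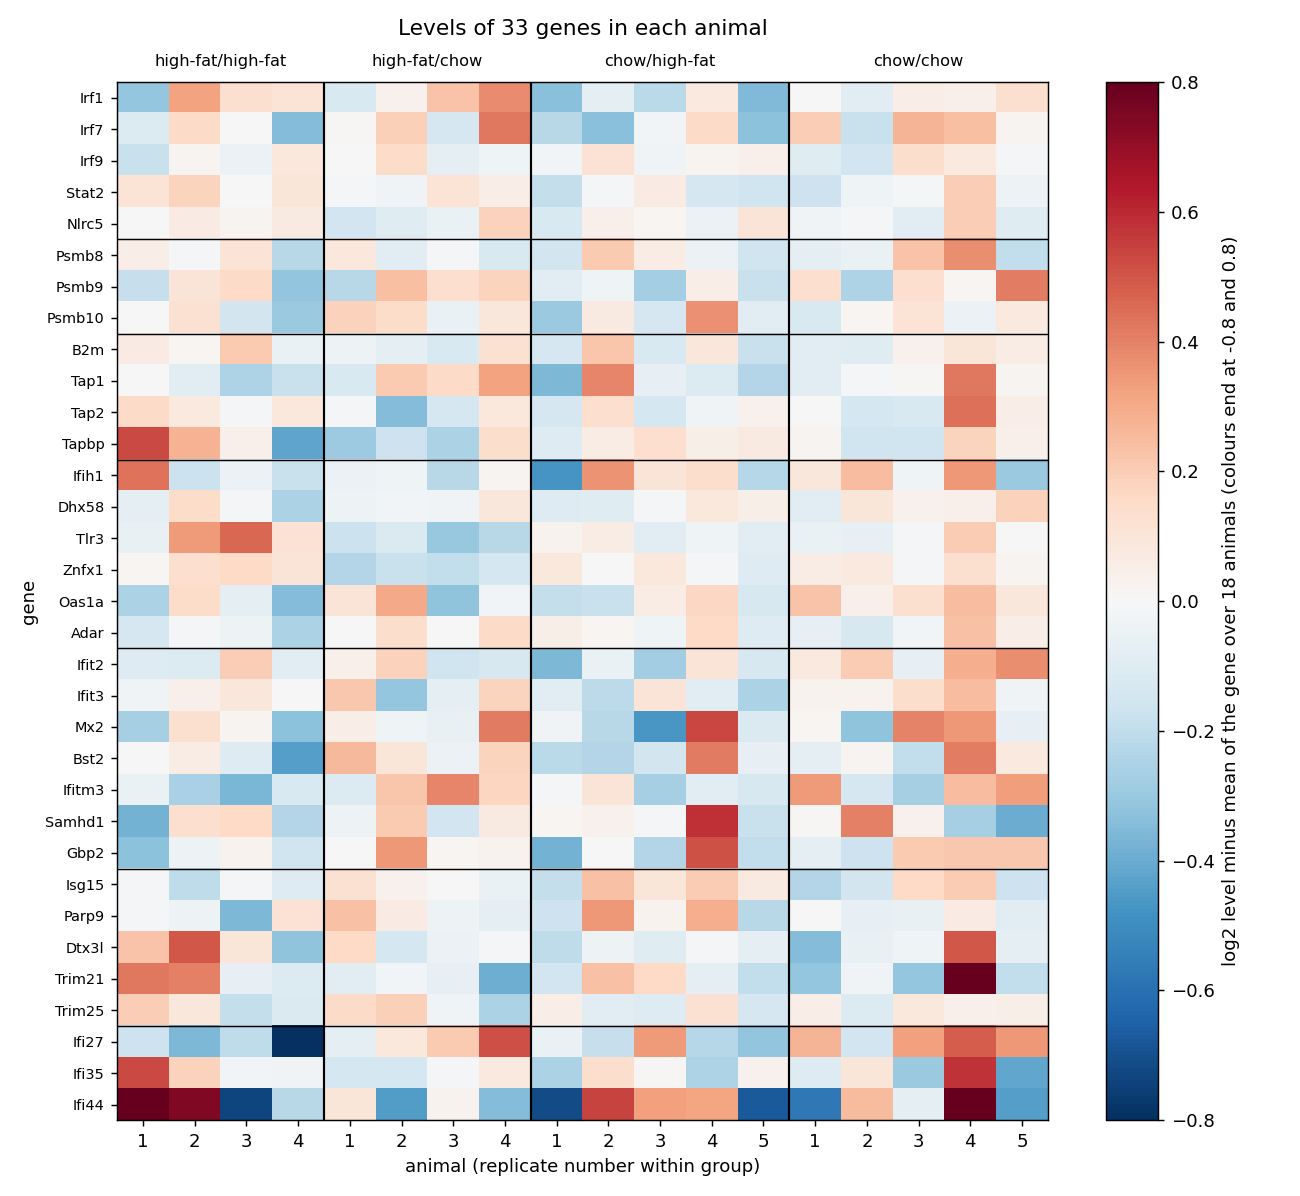
Each gene's log2 level minus its mean over the 18 animals (colour), for 33 genes in rows by role and animals in columns by group. Animal 4 of the chow/chow group is high in most rows, and Ifi44 in the bottom row changes colour from animal to animal within 3 of the 4 groups.

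Across the 18 animals, with each group's mean removed, 423 of 528 pairs of genes (80.1%) had a Pearson r above 0. The median r was 0.232 and 16.1% of pairs had an r above 0.5, against a median of -0.0003 and 4.40% over pairs of all genes. The 17 leukocyte markers had a median r of 0.414 and the 7 MHC class II genes 0.504. After Benjamini-Hochberg adjustment over the 528 pairs, none passed a permutation test within groups. Trim21 and Ifi44 had r = 0.831 and Spearman's rho = 0.785 (permutation p = 0.00055 and 0.0016, adjusted p = 0.167 and 0.161), and r = 0.775 without the 2 animals farthest from the median of Trim21. In each pair the 2 farthest animals were picked by the level of 1 of its genes, with group means kept. Animals far out in the other gene could thus remain. Stat2 and Ifi44 had r = 0.782 and rho = 0.773 (permutation p = 0.00084 and 0.00134, adjusted p = 0.167 and 0.161), and r = 0.682 without the 2 farthest animals. Irf7 and Mx2 had r = 0.737 and rho = 0.744 (permutation p = 0.00154 and 0.00211, adjusted p = 0.167 and 0.161), and r = 0.694 without them. Some other pairs had a higher r than Irf7 and Mx2. Among them were Psmb8 and Isg15 (r = 0.790, rho = 0.796), Trim21 and Ifi35 (r = 0.780, rho = 0.589), and Trim21 and Dtx3l (r = 0.759, rho = 0.604).

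**Figure D4:**
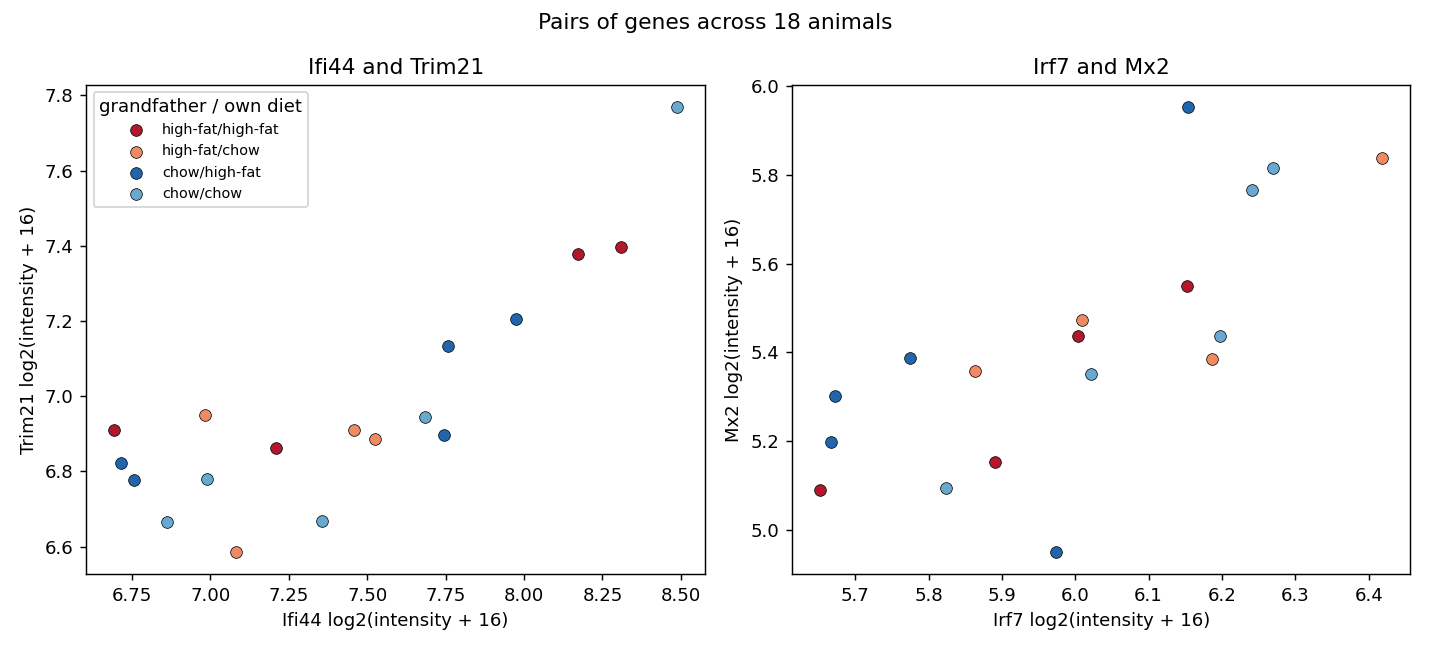
Trim21 against Ifi44 (left) and Mx2 against Irf7 (right) as log2(intensity + 16), with 1 point per animal coloured by group. In both panels high animals of 1 gene tend to be high for the other, and points of all 4 groups lie along the same band.

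Pairs of neighbouring genes had r of either sign, and none passed adjustment. Ifit2 and its direct neighbour Ifit3 had r = -0.257 and rho = -0.166 (permutation p of r = 0.355, adjusted p = 0.7). Their r was -0.291 without the 2 farthest animals. The r was -0.072 for Psmb8 and Psmb9, -0.054 for Tap2 and Psmb9, and 0.380 for Tap2 and Psmb8. Psmb8 and its direct neighbour Tap1 had r = 0.524 and rho = 0.408 (permutation p = 0.0426 and 0.116, adjusted p = 0.296 and 0.472), and r = 0.433 without the 2 farthest animals. Tap1 and Psmb9, which start head to head with 408 bases between them on GRCr8, had r = 0.166 and rho = 0.261 (permutation p = 0.499 and 0.303, adjusted p = 0.803 and 0.677), and r = 0.205 without the 2 farthest animals. Tap1 and Tap2, the partners of the transporter, with Psmb8 between them, had r = 0.559 and rho = 0.377 (permutation p = 0.0302 and 0.159, adjusted p = 0.265 and 0.536). Their r was 0.166 without the 2 animals farthest from the median of Tap1, so the higher value rested on those. Parp9 and Dtx3l, a pair of partner proteins whose genes overlap at their starts, had r = 0.126 and rho = 0.335 (permutation p = 0.621 and 0.188, adjusted p = 0.852 and 0.583), and r = 0.111 without the 2 farthest animals. As a mean of centred log2 levels over the 33 genes, chow/chow replicate 4 stood at 0.26, and the other animals lay between -0.17 and 0.10. In that animal the 17 leukocyte markers stood at 0.16 and the class II genes at 0.23 on the same scale, and their part in the score was not tested.

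Averaged over both lineages, markers of leukocytes and fibroblasts and the class II genes had lower levels on the animals' own high-fat diet. Of all genes 51.6% were lower in this comparison, 3.43% at an unadjusted p under 0.05. All 17 tested leukocyte markers were lower on the high-fat diet, 8 of them at an unadjusted p under 0.05 and none after adjustment, with a median of -0.19. Their summed level ran from 1641 to 1937 in high-fat/high-fat animals, against 1887 to 2295 in high-fat/chow animals, and from 1505 to 2018 in chow/high-fat animals, against 1511 to 2172 in chow/chow animals. Of the 7 class II genes, all were lower (median -0.21, 1 at an unadjusted p under 0.05), and of the 10 fibroblast markers, all were lower (median -0.22, 6 at an unadjusted p under 0.05). Cd53 of leukocytes differed by -0.26 (limma adjusted p = 0.3347) and the fibroblast proteoglycan Dcn by -0.20 (limma adjusted p = 0.4425), while Ptprc, which marks all leukocytes, differed by -0.03. Of the T and NK cell markers, 4 of 6 were lower with a median of -0.0078, and of the endothelial markers, 7 of 8 were lower with a median of -0.049. All 6 slow fibre markers were higher in this mean (median 0.16), but the lineages went opposite ways. In the chow lineage all 6 were lower, with differences from -0.38 to -0.19. In the high-fat lineage all 6 were higher, with differences from 0.25 to 0.78. In the mean all 3 red blood cell markers were higher (median 0.24), as were all 4 B cell and plasmacytoid markers (median 0.036). Of the fat cell markers 5 of 7 were higher (median 0.030). Of the 10 muscle fibre markers 9 were lower, with a median of -0.029, and no marker of any list passed adjustment. These markers had all passed the filter on dim probe sets, and the part of these cells in the interferon genes' differences was not tested.

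For the grandfathers' diet, averaged over both own diets, the interferon genes' differences lay near 0. There were 18 genes lower and 15 higher for high-fat against chow-fed grandfathers, where 51.2% of all genes were lower, with a median of -0.015 and none past adjustment, while 25 of 12749 genes passed (0.196%). Stat2 had the smallest p among them and was the 1 gene higher at an unadjusted p under 0.05, where 7.74% of all genes were. None was lower at that level, where 6.86% were. The count of 1 became 0 without high-fat/high-fat replicate 2 or 4, high-fat/chow replicate 3 or 4, chow/high-fat replicate 1 or 5, or chow/chow replicate 1, 2 or 3. It became 2 if high-fat/chow replicate 1 or 2, or chow/high-fat replicate 2, was left out. Stat2 read 7.20, 7.27, 7.10 and 7.19 in the high-fat/high-fat animals, against 6.90, 7.08, 7.16, 6.96 and 6.93 in the chow/high-fat animals. It read 7.09, 7.07, 7.20 and 7.14 in the high-fat/chow animals, against 6.93, 7.06, 7.08, 7.29 and 7.05 in the chow/chow animals, and the groups overlapped on both diets. The mean difference was 0.11 (SE 0.052, limma adjusted p = 0.3149).

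Irf1 came next, at 0.17 (SE 0.084, limma adjusted p = 0.3502). It read 6.15, 6.79, 6.59 and 6.57 in the high-fat/high-fat animals, against 6.13, 6.39, 6.25, 6.54 and 6.11 in the chow/high-fat animals. It read 6.34, 6.50, 6.69 and 6.84 in the high-fat/chow animals, against 6.46, 6.38, 6.52, 6.51 and 6.59 in the chow/chow animals. In own high-fat animals 3 of the 4 with high-fat grandfathers exceeded all 5 with chow-fed ones. Znfx1 differed by -0.08 (limma adjusted p = 0.4013).

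In animals that ate chow themselves, high-fat against chow-fed grandfathers gave 19 genes lower and 14 higher, where 50.5% of all genes were lower, with a median of -0.0070. Znfx1 differed by -0.24 (SE 0.057, limma adjusted p = 0.3694) and Tlr3 by -0.22 (SE 0.088, limma adjusted p = 0.5135), and both had groups that did not overlap. These were the 2 genes that stood apart below, where 1.74% of all genes did, and the 2 lower at an unadjusted p under 0.05, where 4.41% were. None stood apart above, where 1.53% did, or was higher at that level, where 4.31% were. At that level the count became 1 when high-fat/chow replicate 3 or chow/chow replicate 4 was left out. Within well columns 5, 7 and 9 the difference was -0.28, -0.22 and -0.17 for Znfx1 and -0.24, -0.16 and -0.23 for Tlr3. None passed adjustment, and 1 gene on the array did (0.00784%).

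In animals that ate the high-fat diet, 19 genes were higher and 14 lower for high-fat against chow-fed grandfathers, where 49.7% of all genes were lower, with a median of 0.029. No groups stood apart, where 2.37% of all genes did above and 2.34% below. Tlr3 differed by 0.24 (SE 0.088, limma adjusted p = 0.2463), Stat2 by 0.18 (SE 0.073, limma adjusted p = 0.2753) and Irf1 by 0.24 (SE 0.12, limma adjusted p = 0.3929). Tlr3 and Stat2 were the 2 genes higher at an unadjusted p under 0.05, where 6.65% of all genes were, and none was lower, where 6.59% were. The count of 2 became 0 without high-fat/high-fat replicate 2, 1 without high-fat/high-fat replicate 3 or chow/high-fat replicate 1, and 4 without high-fat/high-fat replicate 4. Within well columns 5 and 7 the differences were 0.46 and 0.15 for Tlr3, 0.17 and 0.13 for Stat2 and 0.26 and 0.32 for Irf1. None passed adjustment, nor did any gene on the array (0%, with 1688 at an unadjusted p under 0.05). On the table as deposited, with no quantile step, Ifit2, Stat2, Tlr3 and Znfx1 passed as higher in this comparison, beside a shift of 0.18 in the median of all genes.

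Of 118 further genes of the pathway, 86 were tested. For own diet 36 of them were higher and 50 lower, with an unadjusted p under 0.05 for 3 and 5 of these and none past adjustment, beside 51.6% of all genes lower and, at that level, 3.29% higher and 3.43% lower. Among the 31 other interferon-induced genes 19 were lower, 4 of them at an unadjusted p under 0.05, and Slfn5 differed by -0.19 (limma adjusted p = 0.5793). For the grandfathers' diet 45 were higher and 41 lower, with an unadjusted p under 0.05 for 7 and 1 of these and none past adjustment, beside 51.2% of all genes lower and, at that level, 7.74% higher and 6.86% lower. Of the 7 interferon receptors and kinases, 6 were higher and 3 of them at an unadjusted p under 0.05, with a median of 0.10, where 7.74% of all genes were higher at that level. The receptor chain Ifngr1 differed by 0.13 (limma adjusted p = 0.3249), Ifnar1 by 0.09 (limma adjusted p = 0.3483) and the kinase Jak1 by 0.10 (limma adjusted p = 0.3806). Ifit1, a relative of Ifit2, differed by 0.75 (SE 0.18, limma adjusted p = 0.0796), and Il10rb, a chain of the type III interferon receptor, by 0.21 (SE 0.057, limma adjusted p = 0.0982). All 6 slow fibre markers were lower for high-fat grandfathers, 4 of them at an unadjusted p under 0.05 and none after adjustment, with a median of -0.65, and their part in these values was not tested.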

How the data were processed

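RNA of EDL muscle from 18 rats was read on 18 Affymetrix arrays, with 200 ng of RNA each. The authors deposited 1 table of linear intensity values per probe set, made with Affymetrix Expression Console and PLIER per the submitters' processing notes, whose versions, genome build and further settings are not given in the sources used here. Of 20917 probe sets, 18197 carry a single gene symbol in the platform table, 960 several and 1760 none, and 18052 matched the RefSeq table by gene ID with no symbol changed.

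From these values log2(intensity + 16) was taken, so folds of dim probe sets are understated, and arrays were quantile normalized. The probe set of highest mean was kept per gene, and genes above the 25th percentile of probe sets were tested with limma 3.58.1 (R 4.3.3) on 4 group means in 7 comparisons. P-values were adjusted by Benjamini-Hochberg over all 12749 genes, with a threshold of 0.05. The procedure was tested on simulated data with noise independent between genes. Nearly all differences of the interferon genes were smaller than the smallest change planted there. The simulation thus does not show how well differences of that size are found. The number of arrays limits the precision. Pairs of genes were tested with 100000 permutations within groups.

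The genes and lists were chosen with earlier results of these data known. Values of each animal are given for the 3 genes of smallest p in each comparison, the genes of highest mean and of largest SD in each role, and genes whose groups did not overlap with an unadjusted p under 0.01. Titles end in a plate-like well position in columns 5, 7 and 9. Some positions occur more than once, each time in different lineages, so if more than 1 plate was run, plate and grandfather's diet cannot be told apart.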

Additional observations from a re-analysis of the deposited data

Results flagged for a closer look

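In 9 of 132 sets of 1 gene in 1 group, an animal lay far from the rest of its group by Dixon's test, which chance gives in about 1 of 20 sets. All values are on the log2 scale. In chow/chow replicate 4, Tap1 read 6.30 (others 5.79 to 5.91), Tlr3 read 9.67 (others 9.41 to 9.48) and Trim21 read 7.77 (others 6.67 to 6.95). In chow/high-fat replicate 4, Bst2 read 6.83 (others 6.18 to 6.35) and Samhd1 read 6.92 (others 6.16 to 6.37). Ifit2 read 7.39 in high-fat/high-fat replicate 3 (others 7.09 to 7.11). Gbp2 read 7.30 in high-fat/chow replicate 2 (others 6.95 to 6.98), and Dhx58 read 5.54 in high-fat/chow replicate 4 (others 5.41 to 5.43). Trim25 was the single low one, at 8.10 in chow/chow replicate 2 (others 8.25 to 8.30).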

How the results depend on the processing

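No interferon gene passed adjustment in any comparison under any alternative, with 1 exception. On the table as deposited, 4 genes (Ifit2, Stat2, Tlr3 and Znfx1) were higher for grandpaternal high-fat diet on own high-fat diet, where 1680 of all genes passed, 1677 of them higher, and the median of all genes shifted by 0.18. Stat2 was then at 0.39 (limma adjusted p = 0.0321) and Tlr3 at 0.46 (limma adjusted p = 0.0197). The genes' median as deposited was 0.20 there, 0.25 for the interaction and -0.20 for own diet in the chow lineage, beside medians of all genes of 0.18, 0.24 and -0.13, and Znfx1 turned to 0.017 for the grandpaternal mean. The cause was not tested. Over all alternatives the adjusted p of Ifi27 for own diet ran from 0.1075 to 0.5692, and in the high-fat lineage that of Znfx1 from 0.0556 to 0.6173 and of Tlr3 from 0.0534 to 0.6173.

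Counts of all genes called moved more. For the grandpaternal mean, 25 became 0 as deposited, with median centring, with an offset of 1, with the well column or neighbouring animal numbers as a block, and without the 2 arrays of lowest median, an alternative chosen after seeing the data. It became 39 with an offset of 64 and 42 with a 50th percentile filter or trended, robust moderation, and ran from 0 to 304 when 1 animal was left out, with 304 without high-fat/chow replicate 1. For own diet, 2 became 4 as deposited, 5 with median centring or trended moderation, 6 with an offset of 64, 15 with the well column, 14 with neighbouring numbers, and 0 with an offset of 1 or without the 2 arrays, and ran from 0 to 14 without 1 animal. For grandpaternal diet on own chow, 1 became 0 as deposited, with either offset or the well column, and 2 with only its groups fitted, and ran from 0 to 2 without 1 animal. For grandpaternal diet on own high-fat diet, 0 became 1 with an offset of 1 and ran from 0 to 56 without 1 animal. As deposited, 1 gene passed for the interaction and 1 for own diet in the chow lineage, and leaving out 1 animal gave 0 to 1 for own diet in the high-fat lineage. Genes lower at an unadjusted p under 0.05 for own diet numbered 2 to 9 without 1 animal and 3 with the 50th percentile filter. That filter left 8567 genes in all, and Irf7, Tap1 and Oas1a were too dim to be tested under it. As deposited, genes higher at that level numbered 9 instead of 2 for grandpaternal diet on own high-fat diet and 8 instead of 2 for the interaction.

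Whether animals were paired is not known, since the titles carry no shared replicate numbers and the labels do not call neighbouring animal numbers pairs. As a random block (8 pairs of neighbours and 2 animals alone, consensus correlation 0.125), those numbers left no interferon gene past adjustment. Within neighbours of the chow lineage, Ifit2, Irf7, Oas1a and Ifit3 were lower on own high-fat diet in 5 of 5. Ifi27, Ifitm3, B2m, Tap1, Tap2 and Dhx58 were lower in 4 of 5. In the high-fat lineage Ifi27, Ifitm3, Psmb10, Adar, Bst2, Gbp2, Isg15 and Trim25 were lower in 3 of 3. Znfx1, Tlr3, Nlrc5, B2m and Tap2 were higher in 3 of 3. With so few neighbours many genes reach such counts, and the share over all genes was not computed. Other probe sets of a gene could not be tried, since each gene had a single one. Dim probe sets such as those of Mx1, Rsad2 and Usp18 limit what can be seen.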
